A study of Mus musculus with 2 samples.

Results

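Cyclic nucleotide phosphodiesterases are the enzymes that hydrolyse the second messengers cAMP and cGMP, and 10 of their genes are described here in pancreatic islets: Pde1a, Pde1c, Pde3b, Pde4b, Pde4d, Pde5a, Pde7a, Pde8a, Pde8b and Pde10a. They were chosen by name, with their values on these arrays already known, among 18193 genes measured by a probe set that carries a single gene symbol. Every difference below is therefore a description. One sample held islets of transgenic mice overexpressing miR-141 and miR-200c (genotype label miR-141/200c_overexpression), and the other islets of control mice (Bl6_control, titled C57Bl6_islets). The genotype label and title of the transgenic sample name no strain, so a strain difference could not be told apart from the transgene. Both groups were male, 6 weeks old, kept under standard housing, and their islets received no treatment between isolation and RNA extraction. The transgenic sample is titled Ripmir_islets, and neither this title nor the genotype label spells out the promoter or cell type driving the transgene. The number of mice behind each sample is not given in those labels. There was 1 array per genotype, so no value has a replicate error, no test was possible and no p-value was computed.

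In beta cells cAMP amplifies insulin secretion: incretin hormones raise it through adenylyl cyclase, it acts through protein kinase A and Epac, and phosphodiesterases end the signal. The families differ in what they hydrolyse and in what regulates them. Pde1 enzymes are stimulated by calcium and calmodulin, Pde3b is inhibited by cGMP, Pde4, Pde7 and Pde8 enzymes are specific for cAMP, Pde5a is specific for cGMP, and Pde10a takes both.

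The overexpressed microRNAs belong to the miR-200 family and repress messenger RNAs that carry matching sites. Their mature 3p strands are shown because the genotype label names these microRNAs, and the level of either strand was not examined. Capitals mark the seed, bases 2 to 8 from the 5′ end, and the seeds differ at 1 position, position 4. Sequences are from RefSeq on GRCm38.p6, at chr6:124717917-124717938 and chr6:124718324-124718346, both on the minus strand.
mmu-miR-141-3p: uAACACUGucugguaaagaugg
mmu-miR-200c-3p: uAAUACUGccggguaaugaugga

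The values are log2 RMA values per probe set. A floor of 5.76, the median of all values on both arrays, was used to set apart probe sets near the background. A gene was represented by its probe set with the highest mean and was kept when it reached the floor on at least 1 array, as 12143 genes did. A gene or probe set was called at a log2 difference of 1, which is 2-fold. RMA values of different probe sets depend on probe affinity, so the levels below do not rank the genes by transcript number. In islet tissue, fewer cells of a type and less RNA per cell cannot be told apart.

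The 10 genes had 36 probe sets, of which 20 reached the floor on at least 1 array. Pde1a and Pde8b stayed below it with both of their probe sets, which leaves 8 genes kept. Of these, 1 was lower by 2-fold or more in the transgenic sample, against 0.511% of all genes kept, and 0 were 2-fold higher, against 2.51%. At a 1.5-fold rule the counts were again 1 and 0, against 3.14% and 7.73%. In direction, 6 of the 8 were lower, against 45.7% of all genes kept, and their median difference was -0.21 against 0.03. Of the 20 probe sets at the floor, 3 were 2-fold lower (0.784% of all such probe sets) and 0 were 2-fold higher (2.15%), and 11 were below 0 (48.1%). All 3 belonged to Pde1c. Since the genes were chosen with these differences in view, nothing is read from the counts.

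**Figure D1:**
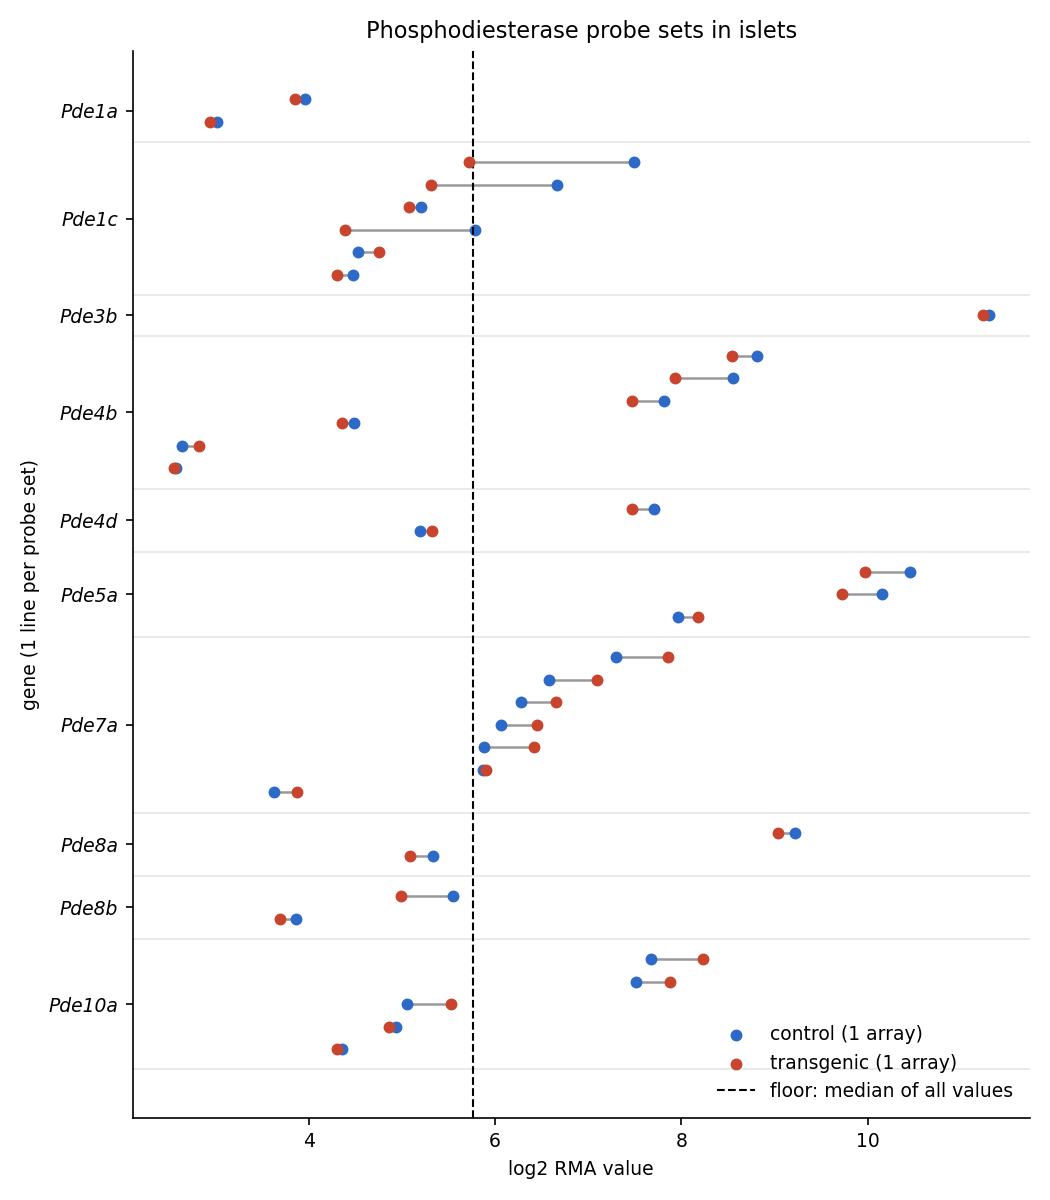
Log2 RMA value (horizontal axis) of each of the 36 phosphodiesterase probe sets, 1 line per probe set grouped by gene, on the control array (blue) and the transgenic array (red). The dashed line is the floor of 5.76; the long lines are the 3 Pde1c probe sets that cross from above the floor on the control array to below it on the transgenic array, and Pde3b lies highest at 11.24 and 11.30.

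Pde1c, a calmodulin-stimulated enzyme that hydrolyses both cAMP and cGMP, showed the furthest difference of the 10 genes. Its brightest probe set, 1440374_at, read 5.72 on the transgenic and 7.50 on the control array, a difference of -1.77 or 3.42-fold lower. A second, 1436251_at, read 5.31 and 6.66, 2.55-fold lower, and 1444386_at read 4.39 and 5.78, 2.64-fold lower. These 3 passed the floor only through the control array, and each transgenic value lay below it, so the background limits the folds. The other 3 probe sets of Pde1c were below the floor on both arrays, between 4.31 and 5.20, with differences of -0.13, 0.23 and -0.17. Averaged over all 6 probe sets the gene read 4.93 and 5.69, a difference of -0.76 that lies below the floor on both arrays. Whether the probe sets read different transcripts of the gene is not given in the files used here.

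Pde1c stood near the bottom of the order of differences over all 12143 genes kept, a place that rests on a transgenic value below the floor. With 1 array per genotype a gene has a single difference, so position in that order is the only pattern to compare. Its neighbours were Negr1, a neural adhesion protein, at -2.20 and Tmem255a at -1.91 on the lower side, where the transgenic value of Negr1, 5.73, also lay below the floor. On the other side stood the inducible heat shock gene Hspa1a at -1.69 and the amino acid transporter gene Slc6a19 at -1.67. The transgenic value of Slc6a19, 5.77, lay just above the floor of 5.76.

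Its close relative Pde1a, also stimulated by calmodulin and more active on cGMP, was not measured above background. Probe set 1449298_a_at read 3.85 on the transgenic and 3.96 on the control array, and 1431625_at read 2.93 and 3.02. They lay between percentiles 3.62 and 19.7 of all probe sets on their arrays, so no fold is given.

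**Figure D2:**
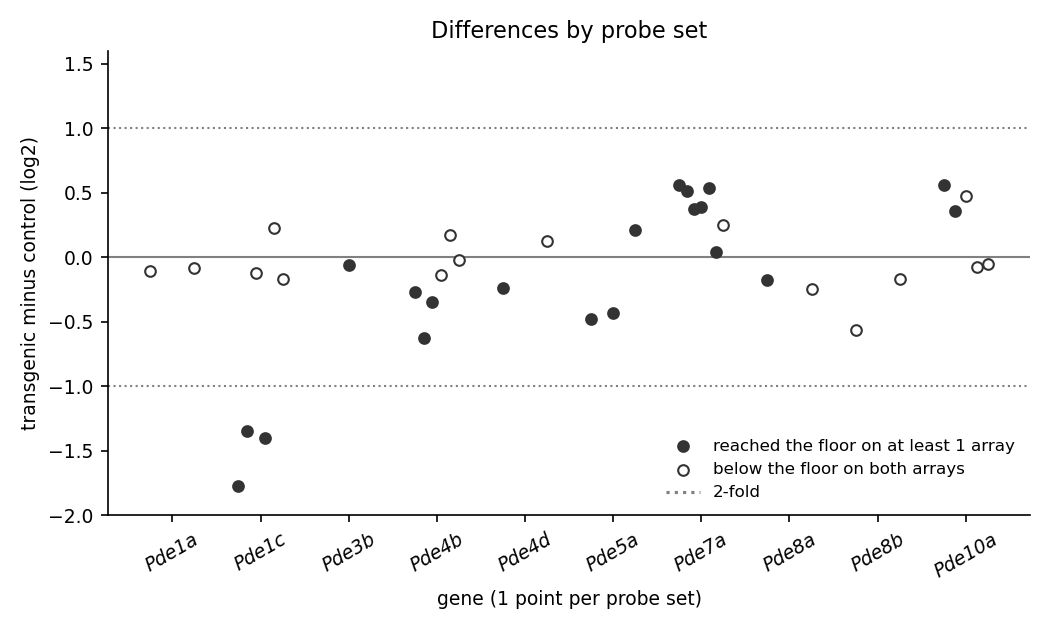
Transgenic minus control log2 difference (vertical axis) of each probe set of the 10 genes. Filled points reached the floor on at least 1 array and open points did not; the dotted lines mark 2-fold, and only the 3 filled Pde1c points, at -1.77, -1.40 and -1.35, lie beyond them.

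Pde3b, the cGMP-inhibited enzyme that insulin activates in fat and liver cells, read far above the floor and almost alike on both arrays. Its single probe set, 1433694_at, read 11.24 on the transgenic and 11.30 on the control array, percentiles 97.4 and 97.6 of all probe sets on those arrays. The difference of -0.06 was the only one among the 8 genes kept that lay inside the central 50% of all genes kept, which ran from -0.16 to 0.24.

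Pde4b and Pde4d encode cAMP-specific enzymes that rolipram inhibits, and both read lower in the transgenic sample, by less than 2-fold. For Pde4b, 1422474_at read 8.54 on the transgenic and 8.81 on the control array, 1422473_at read 7.93 and 8.55, and 1442700_at read 7.47 and 7.82. The differences were -0.27, -0.63 and -0.34, so the 3 probe sets at the floor had the same sign and were up to 0.35 apart. The remaining 3, below the floor on both arrays, differed by between -0.14 and 0.18. Pde4d had 1 probe set at the floor, 1435280_at, at 7.48 and 7.71, a difference of -0.23. Its other probe set, 1459311_at, was below the floor at 5.32 and 5.20 and had the opposite sign.

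Pde7a, a cAMP-specific enzyme that rolipram does not inhibit and that is known from T cells, was the member with the most probe sets above 0. All 7 were higher in the transgenic sample, with 6 at the floor on both arrays, and none reached 2-fold. The brightest, 1458218_s_at, read 7.86 on the transgenic and 7.30 on the control array, 1.47-fold higher. It was followed by 1438041_at at 7.10 and 6.58, 1439484_at at 6.66 and 6.28, and 1423314_s_at at 6.45 and 6.06. Next came 1423313_at at 6.42 and 5.88, with a difference of 0.54, while 1450933_at, at 5.90 and 5.87, differed by 0.04. Probe sets of 1 gene share their RNA and do not replicate each other, and the _s class can match more than 1 transcript.

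Immune cells also express Pde4b and Pde7a, and markers of such cells were examined in the same arrays. Of 13 kept macrophage markers 12 were higher in the transgenic sample (median difference 0.83), with Mpeg1 at 1.25, C1qb at 1.15 and C1qc at 1.14. Their summed level, the log2 of the sum of unlogged values, was 13.31 on the transgenic and 12.67 on the control array, and Itgam and Cx3cr1 were below the floor on both arrays. Of the genes listed as lymphocyte markers 5 of 10 were higher (median -0.05, summed level 11.85 and 11.74), with Ncr1 below the floor. Cd2 stood at 0.63, Cd3d at -0.48 and Ptprc, which is not limited to lymphocytes, at 0.45. The macrophage markers thus stood higher where Pde7a was higher and Pde4b lower, and their part in either difference was not tested.

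Pde8a, a cAMP-specific enzyme of high affinity that the general inhibitor IBMX does not block, read 9.04 on the transgenic and 9.22 on the control array with 1418406_at. The difference was -0.18, and its second probe set, 1418407_at, was below the floor at 5.09 and 5.33. For its relative Pde8b, 1435741_at read 4.99 on the transgenic and 5.55 on the control array, and 1437989_at read 3.69 and 3.86. Both stayed below the floor on both arrays, so no fold is given, although both values were lower in the transgenic sample.

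Pde5a, the cGMP-specific enzyme that sildenafil inhibits, was the only one of the 5 members with several probe sets at the floor in which these differed in sign. Probe set 1458341_x_at read 9.98 on the transgenic and 10.46 on the control array, and 1455970_at read 9.72 and 10.16, differences of -0.48 and -0.43. The third, 1460118_at, read 8.18 and 7.97, a difference of 0.21. The third thus lay 0.69 from the brightest, the largest gap among the probe sets of this gene. Over all genes kept, the median distance between a gene's brightest probe set and its others was 0.19, which is not a largest gap. The brighter probe sets lay between percentiles 91.5 and 95.1 of the arrays, and the x class of the first can match other transcripts.

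Pde5a is known from smooth muscle and pericytes, whose markers were examined too. Of 12 kept markers of stellate cells, pericytes and smooth muscle 11 were higher in the transgenic sample (median 0.83), with Myh11 at 1.51, Col1a2 at 1.27 and Postn at 1.05. Their summed level was 12.96 on the transgenic and 12.10 on the control array, with Cnn1, Col1a1 and Pdgfra below the floor. The median of these markers was 0.63 with probe sets averaged and 0.62 without probe sets of class _s, _x or _a. Endothelial markers were higher for 8 of 10 (median 0.08, summed level 12.18 and 12.10), with Pecam1 at 0.88, Erg at -0.61 and Tek at 0.56, and Tie1 and Vwf below the floor. Erg was kept only through its control value, its transgenic value of 5.39 being below the floor. The part of these cells in the Pde5a values was not tested.

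Pde10a, a dual enzyme best known from the medium spiny neurons of the striatum, was higher in the transgenic sample by less than 2-fold. Probe set 1439618_at read 8.24 on the transgenic and 7.68 on the control array, a difference of 0.56, and 1419389_at read 7.87 and 7.51, a difference of 0.36. Of its 3 probe sets below the floor on both arrays, 1458499_at read 5.53 and 5.06, and 1432490_a_at and 1419390_at differed by -0.07 and -0.05. Among all genes kept, Pde7a was number 1006 and Pde10a number 1010 from the top in the order of differences. Schwann cell and neuron markers were higher for 5 of 6 (median 0.60, summed level 10.08 and 9.42), with Cdh19 at 1.63, Th at 0.93 and Erbb3 at 0.87. Cdh19 was kept only through its transgenic value, its control value of 4.58 being below the floor. The median was 0.37 with no floor, 0.87 without probe sets of class _s, _x or _a, and 0.93 with probe sets averaged or with a floor at the 75th percentile. Gfap and S100b were below the floor, and the part of these cells in the Pde10a values was not tested.

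**Figure D3:**
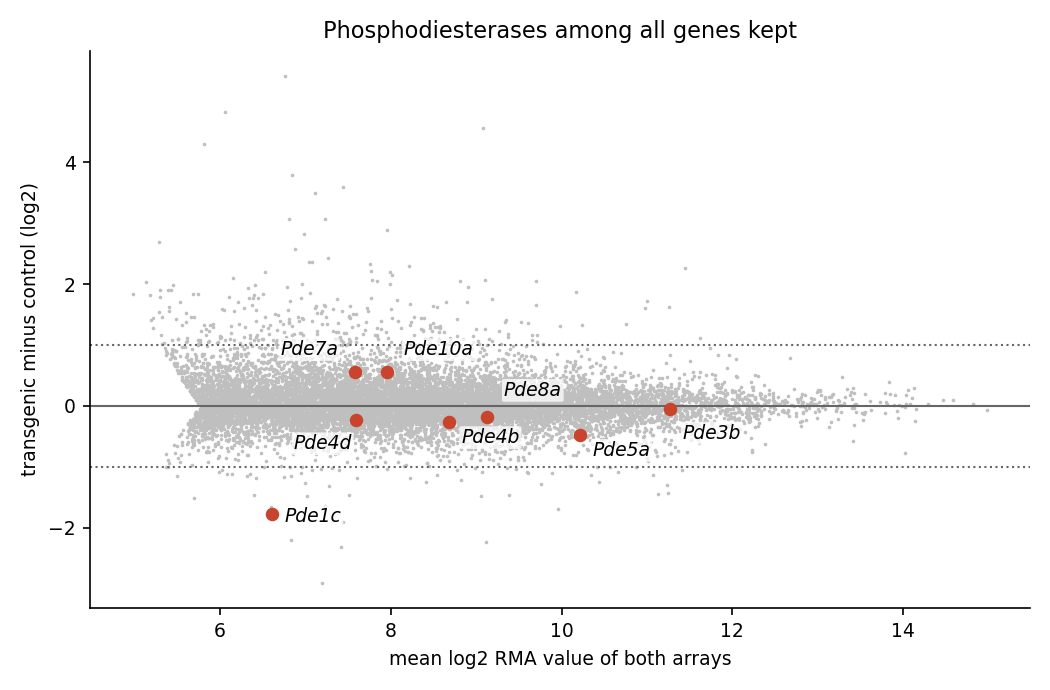
Transgenic minus control log2 difference (vertical axis) against the mean log2 RMA value of both arrays (horizontal axis) for the 12143 genes kept (grey) with the 8 phosphodiesterases kept (red). Dotted lines mark 2-fold; Pde1c lies near the lower edge at -1.77, Pde7a and Pde10a at 0.56, and the rest between -0.48 and -0.06.

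The labelled tissue was checked on its markers, and the arrays as a whole were compared. All 13 measured beta cell markers reached the floor (7 higher, median 0.04, summed level 16.61 and 16.60), with Ucn3 at -0.81, Abcc8 at 0.49 and Pcsk1 at 0.48. Ins2 read 14.95 and 15.02, Iapp 14.84 and 14.80, Pdx1 10.41 and 10.09, Slc2a2 12.64 and 12.97, and Gcg 14.13 and 14.19, transgenic first. Other endocrine markers were higher for 6 of 8 (median 0.02, summed level 16.57 and 16.59), with Ghrl at 0.65, Hhex at 0.26 and Ttr at -0.25. Acinar markers also read near the top of the scale (7 of 10 higher, median 0.10, summed level 16.84 and 16.73), with Ctrc at -2.23, Bhlha15 at -0.44, Cela2a at 0.26 and Ptf1a below the floor. Ductal markers were higher for 5 of 5 (median 0.26, summed level 12.78 and 12.10), with Prom1 at 1.11, Krt19 at 0.32 and Muc1 at 0.26, and Cftr and Onecut1 below the floor. Of the adipocyte markers only Lpl, at -0.86, and Fabp4, at 0.38, reached the floor (summed level 10.88 and 11.57), on opposite sides of 0, and Adipoq, Cidec and Lep were below it. Across 45101 probe sets the arrays correlated at Pearson's r = 0.988, as a description.

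Promoter windows were examined because several of these genes start at more than 1 place. RefSeq windows from 250 bases before to 50 after a start on GRCm38.p6 were found for 8 of the 10 genes, 21 windows in all, some of which overlap, and not for Pde3b and Pde7a. Pde1c, the member with the furthest difference, had 3. They are printed 5′ to 3′ on the gene's strand, and capitals mark CACCTG on either strand, the E-box variant bound by Zeb1 and Zeb2, which are standard targets of the miR-200 family.
chr6:56362343-56362642 (minus strand): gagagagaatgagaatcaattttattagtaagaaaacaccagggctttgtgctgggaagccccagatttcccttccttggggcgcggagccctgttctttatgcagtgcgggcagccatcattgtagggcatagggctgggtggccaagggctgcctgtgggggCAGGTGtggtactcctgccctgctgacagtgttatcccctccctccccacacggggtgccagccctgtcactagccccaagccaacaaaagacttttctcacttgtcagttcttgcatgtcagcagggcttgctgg
chr6:56362761-56363060 (minus strand): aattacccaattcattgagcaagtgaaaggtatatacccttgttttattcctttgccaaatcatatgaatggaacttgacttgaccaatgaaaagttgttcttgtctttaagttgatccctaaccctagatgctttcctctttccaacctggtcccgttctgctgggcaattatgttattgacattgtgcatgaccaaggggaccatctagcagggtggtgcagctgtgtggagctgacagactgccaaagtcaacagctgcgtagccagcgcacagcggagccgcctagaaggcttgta
chr6:56369585-56369884 (minus strand): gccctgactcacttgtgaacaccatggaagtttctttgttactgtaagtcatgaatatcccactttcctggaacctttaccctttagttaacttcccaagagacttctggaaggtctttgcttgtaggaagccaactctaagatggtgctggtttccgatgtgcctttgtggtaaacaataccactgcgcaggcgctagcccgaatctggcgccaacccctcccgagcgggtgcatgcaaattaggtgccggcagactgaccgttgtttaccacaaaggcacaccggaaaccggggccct

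The first Pde1c window held CACCTG once and the others held none. Over the 8 genes, 7 of 21 windows held it, against 20.2% of 32851 windows of the same length. The overlapping windows of Pde8b share a match, so these are 6 sites, 1 each in Pde1a, Pde1c, Pde4b, Pde4d, Pde5a and Pde8b. The cAMP response element TGACGTCA was in 0 of 21, against 1.79%. Its shorter form TGACG, which lies within the full element, was in 4 of 21 on either strand, from Pde1a, Pde4b, Pde8a and Pde8b, against 20.8%. Genes with CACCTG were Pde1c, Pde4b, Pde4d and Pde5a, lower by their brightest probe sets, and Pde1a and Pde8b, not measured above background. Pde8a, also lower, held no CACCTG, and Pde10a, which was higher, held neither motif in its windows. Pde7a, which was higher too, and Pde3b had no window to search. A link between motif and difference was not tested. A match of letters is no binding site, and the files do not say which start a probe set reads.

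The rest of the cyclic nucleotide pathway was described with 10 lists of 119 genes in all, of which 108 had a probe set and 81 were kept. In the transgenic sample 0 of the 81 were 2-fold lower, against 0.511% of all genes kept, and 1 was 2-fold higher, against 2.51%. The median difference was 0.01, and 38 of the 81 were below 0, against 45.7%.

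Of the other phosphodiesterase genes, 7 of 13 measured were kept and 6 of them were higher in the transgenic sample (median 0.19), none 2-fold. Pde7b, the relative of Pde7a, read 7.17 on the transgenic and 6.51 on the control array, a difference of 0.66. Pde6d, a carrier of prenylated proteins despite its name, stood at 0.44. Pde11a stood at 0.28, with a control value below the floor, and Pde2a, a cGMP-stimulated enzyme, at 0.19. Below the floor on both arrays were Pde3a, Pde6a, Pde6b, Pde6c, Pde6h and Pde9a, several of them enzymes of the retina.

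Among the enzymes that make the messengers, 8 of 10 adenylyl cyclases were kept, 4 on either side of 0 (median 0.06). Adcy7 read 7.08 on the transgenic and 6.14 on the control array, a difference of 0.95, and Adcy2 stood at 0.43. Adcy5 stood at -0.53 and Adcy9 at -0.46, and the 3 other probe sets of Adcy9 at the floor had the same sign. Of the guanylyl cyclases 4 of 8 measured were kept (3 higher, median 0.44). Gucy2c, the receptor of guanylin and of bacterial enterotoxin in the gut, read 9.10 and 7.82, 2.43-fold higher, and was the 1 pathway gene past the rule. The soluble cyclase subunits Gucy1a1 and Gucy1b1, which nitric oxide activates, stood at 0.46 and 0.43, and Npr2, a natriuretic peptide receptor, at -0.11. The G protein alpha subunits that act on adenylyl cyclase, all 7 kept, had a median of 0.01. Gnal, which stimulates the cyclase, stood at -0.63, while Gnai3 was at -0.42, Gnao1 at -0.29 and Gnai1 at 0.25.

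**Figure D4:**
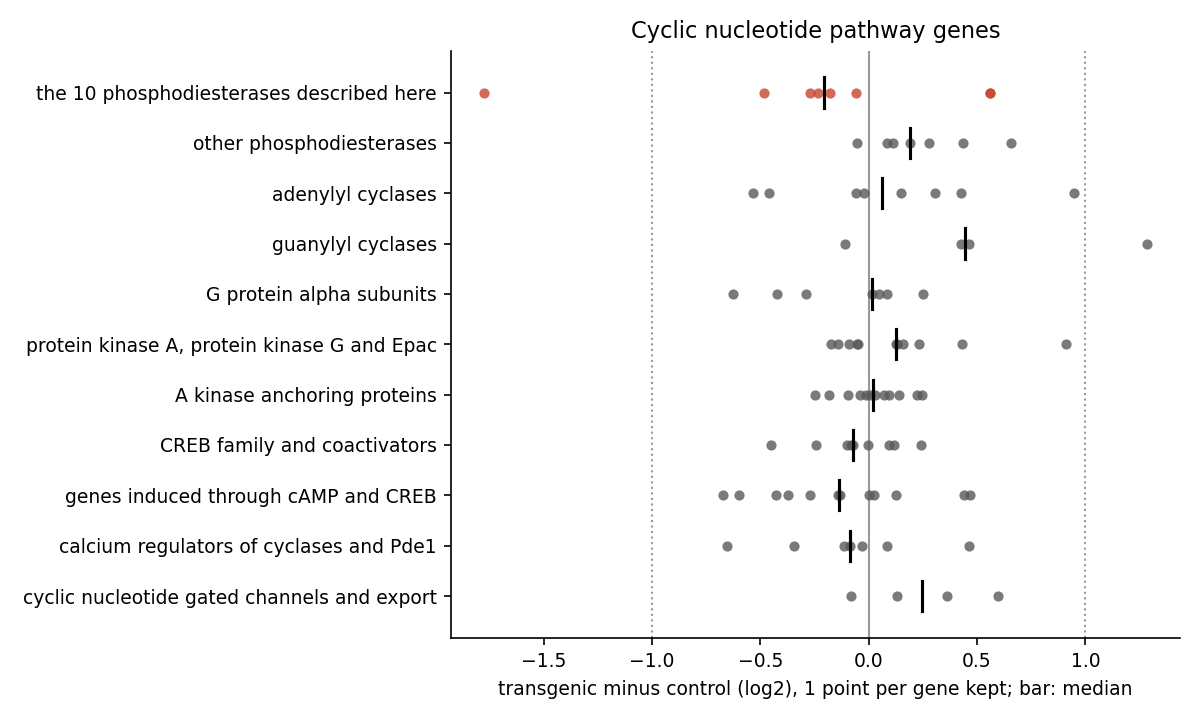
Transgenic minus control log2 difference (horizontal axis) of the phosphodiesterases described here (red, 8 genes kept) and of the genes kept in the 10 other cyclic nucleotide lists (grey), 1 point per gene with a bar at each median. Dotted lines mark 2-fold; Pde1c at -1.77 and Gucy2c at 1.28 are the points beyond them.

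Among the effectors, 11 of 12 measured genes of protein kinase A, protein kinase G and Epac were kept, 6 of them higher (median 0.13). The regulatory subunit gene Prkar2b read 9.30 on the transgenic and 8.39 on the control array, a difference of 0.91, and further probe sets of the gene stood at 0.58 and 0.84. Prkar2a stood at 0.43, the kinase inhibitor gene Pkig at 0.23 and Prkar1b at -0.17. A kinase anchoring proteins had 12 of 16 kept (median 0.02), with Akap11 at -0.25, Akap2 at 0.24 (its other probe set at -0.18), Akap1 at 0.22 and Pde4dip, a scaffold that binds Pde4d, at -0.18. Of 7 measured calcium-dependent regulators, all kept (median -0.08), Camk2a stood at -0.66, Camk2b at 0.46, the calcineurin subunit gene Ppp3r1 at -0.34 and Camk2d at -0.12, with its other probe set at 0.22. Gated channels and exporters had 4 of 12 kept (median 0.25), with the channel gene Hcn2 at 0.60, the cAMP exporter gene Abcc4 at 0.36, Abcc5 at 0.13 and Hcn3 at -0.08.

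Downstream, the CREB family and its coactivators, 9 of 9 measured genes kept, had a median of -0.07. The kinase gene Sik2 stood at -0.45, with its other probe set at 0.09, Crtc1 at -0.24, Crtc2 at 0.24, with its other probe set at -0.31, and Crtc3 at 0.11. Genes that cAMP can induce through CREB, 12 of 14 kept, were lower for 7 (median -0.14). Rgs2, a regulator of G protein signalling, read 9.23 on the transgenic and 9.91 on the control array, a difference of -0.67. Fos stood at -0.60, Nr4a3 at 0.47 and Nr4a2 at 0.44, where the other probe set of Nr4a3 at the floor had the opposite sign. Pde4dip, Gnao1, Abcc5 and Nr4a2 also had probe sets of both signs at the floor.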

How the data were processed

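Per the submitters' processing notes, the authors deposited log2 expression values made with RMA in Affymetrix Expression Console (the versions used are not given in these sources). That procedure subtracts background, brings arrays to 1 distribution and merges the probes of each set. Sorted values of both columns differed by at most 0.10. Which arrays were normalized together is not given. The number of arrays, 1 per genotype, limits the precision.

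Of 45101 probe sets, 34945 carried a single symbol in the platform annotation, and 34741 of these matched the GRCm38.p6 gene table by Entrez identifier, which updated the symbols. Array controls (64) and probe sets with several or no symbols were left out. The floor, the brightest probe set per gene and the 2-fold rule are as given above, and medians and counts were computed without tests. Named genes were every member with each probe set, pathway genes past 2-fold, otherwise up to 4 per pathway list and 3 per marker list furthest from 0, and the neighbours of the furthest member in order. Genes given for the tissue check (Ins2, Iapp, Pdx1, Slc2a2, Gcg) were fixed by name. The members and lists were chosen with earlier results of these data known. The procedure was run on simulated data, with known differences and little noise put on the control values. That run checks the computation and not the precision of these arrays. Python 3.11.15, numpy 2.4.6, pandas 2.3.3, statsmodels 0.14.6 and matplotlib 3.10.9 were used.

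The alternatives averaged the probe sets of a gene, dropped those of class _s, _x or _a, used no floor or one at the 75th percentile (7.81), removed a lowess trend (span 0.3), quantile normalized again and used a 1.5-fold rule.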

Additional observations from a re-analysis of the deposited data

How the results depend on the processing

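With probe sets averaged, and with a floor at the 75th percentile, 0 phosphodiesterase genes were 2-fold lower. Averaging took Pde1c from -1.77 to -0.76, which is under 2-fold, and its averaged values also lay below the floor of 5.76. The stricter floor lies above both values of its brightest probe set. The stricter floor also left 0 probe sets 2-fold lower, against 3. The median difference of the phosphodiesterase genes kept was -0.21. It became -0.06 with probe sets averaged, where 5 of 7 genes were lower, and -0.12 with the stricter floor, where 4 of 6 were. The 2-fold counts kept their values without the _s, _x and _a classes, with no floor, with the lowess trend subtracted and with a second quantile normalization. A change under 0.19 was taken as small, since there are no replicates. That value is the median distance between a gene's brightest probe set and its others. It comes from single genes and was used for the list medians as well. Leaving out Pde1c in the 2 settings that put it below the floor, and Pde4d with the stricter one, 6 alternatives gave 45 differences of phosphodiesterase genes, of which 2 moved by more, Pde5a to -0.24 and Pde10a to 0.25 with probe sets averaged, and 0 changed sign. Of 120 list medians 15 moved by more and 14 changed sign, among them guanylyl cyclases at -0.04 with probe sets averaged (0.20 with no floor and 1.28 with the stricter one), G protein subunits at -0.20 and -0.21 with probe sets averaged or without those classes, and adenylyl cyclases at -0.08 with the stricter floor. The adipocyte median of -0.24, over 2 genes, became 0.16 with no floor and -0.86 without those classes. Over all genes, 62 lower and 305 higher calls became 38 and 217 with probe sets averaged, 39 and 168 with the stricter floor, and 381 and 939 at 1.5-fold. No paired analysis was possible because each genotype has 1 array, and for the same reason no array could be left out. Values near the floor limit the folds of Pde1c.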

Other observations

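Other probe sets of the pathway genes, which the choice of the brightest probe set per gene passed over, held further values that were singled out after they were seen. Of 154 pathway probe sets at the floor, 3 were 2-fold lower in the transgenic sample and 1, that of Gucy2c, was 2-fold higher, against 0.784% and 2.15% of all probe sets at the floor. Prkacb encodes a catalytic subunit of protein kinase A. Its probe set 1420610_at read 3.79 on the transgenic and 7.20 on the control array, a difference of -3.40, and was the lowest in the order of differences over all 20548 probe sets with a single symbol at the floor. The brightest Prkacb probe set, 1420611_at, read 11.88 and 12.03, a difference of -0.14, and 1457197_at was below the floor at 3.43 and 3.54. The platform annotation gives the same sequence record for 1420610_at and 1420611_at, so it names no separate transcript for the lower value. Background limits the fold of 1420610_at, whose transgenic value is under the floor.

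Gnas, which encodes the stimulatory G protein alpha subunit, read 13.30 on the transgenic and 13.21 on the control array with its brightest probe set, 1450186_s_at. Its probe set 1453413_at read 5.90 and 7.25, a difference of -1.35. Akap13, an anchoring protein for protein kinase A, read 10.55 and 10.41 with 1433722_at and 5.61 and 7.07 with 1443923_at, a difference of -1.46 that the background limits, since 5.61 is below the floor. Which transcripts these probe sets read is not given in the files used here.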
